A study of Mus musculus with 12 samples.

Results

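The Hox genes encode homeodomain transcription factors that lie in 4 clusters and record position along the body axis. Their members were chosen as the entries of the expression table whose symbol is Hox, a cluster letter from a to d and a paralogue number, which gave 39 genes of the 24692 entries. There were 11 Hoxa, 10 Hoxb, 9 Hoxc and 9 Hoxd genes. By paralogue number, 8 were anterior (1 to 3), 15 central (4 to 8) and 16 posterior (9 to 13). The Hoxa genes lie on the minus strand of chromosome 6. In GRCm38 the Hoxb genes cover chr11:96194316-96368256, the Hoxc genes chr15:102921103-103036852 and the Hoxd genes chr2:74668310-74765142, all on the plus strand, over 173.9, 115.8 and 96.8 kb.

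Messenger RNA was sequenced from 4 cell populations sorted from mouse back skin, with 3 libraries each. They were dermal papilla (DP, replicates 1, 2 and 4), the signalling cluster at the follicle base, and dermal sheath (DS, replicates 1, 4 and 5), the connective tissue around the follicle. The others were hair follicle dermal stem cells (DC, replicates 1, 2 and 4) and interfollicular dermis (IFD, replicates 1, 2 and 6), the dermis between follicles. All mice were males of the strain Sox2:GFP/aSMA:dsRed at postnatal day 26 to 27, with back skin follicles in early anagen, the start of hair growth. The strain name gives a green reporter for Sox2 and a red one for smooth muscle actin. The labels name neither the antibodies and gates that define each population nor how many mice a library holds, and 1 DS library carries the title DSL1, whose added letter is not explained. Values are FPKM, which are scaled to transcript length and to the library, and are listed below in the order of replicate number.

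As background, the order of Hox genes along a cluster matches the order in which they are switched on from anterior to posterior in the embryo. Adult fibroblasts keep part of this pattern, so the Hox genes a skin cell expresses reflect where on the body it arose. Hox proteins bind DNA with PBX and MEIS partners, and trithorax and Polycomb complexes maintain the active and silent states of the clusters. Hoxc13 has a further role in skin, since it controls hair keratin genes in the cells that form the hair shaft.

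The population names were checked against marker lists before the Hox genes were read. Summed over 12 fibroblast markers, the libraries held 13447 to 24088 FPKM in DP, 983 to 1929 in DS, 9700 to 12321 in DC and 829 to 1569 in IFD. The DS and IFD libraries thus carried far less of the fibroblast markers than their labels call for, and the names below are those of the labels. The 14 keratinocyte markers summed to 1516 to 4308 FPKM in DP, 1903 to 2113 in DS, 868 to 1628 in DC and 2019 to 2367 in IFD libraries, and none of the 14 was at 0 in any library. The 10 markers of contractile sheath and stem cells summed to 2684 to 2971 FPKM in DC libraries and to at most 518 elsewhere, also in DS. Dermal papilla markers summed to 587 to 2324 FPKM in DP and 320 to 756 in DC libraries, which overlapped. They summed to 90.3 to 169 in DS and 234 to 386 in IFD, below every DP library. The FPKM of a library summed to 181683 to 262695. The number of reads is unknown, and relative depth read from the lowest values differed 3.04-fold between libraries.

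The microRNA families miR-196 and miR-10 lie inside the Hox clusters and pair with Hox messages. Mir615 also lies there, in the Hoxc cluster, and is not shown. Mature sequences of both families are given with the seed, bases 2 to 8, in capitals. They are from RefSeq, with GRCm38.p6 positions. The miR-196 genes share one seed and lie beside posterior Hox genes, and the miR-10 genes share another and lie near paralogue 4 genes. Mir196a-2, at chr15:102973365-102973386 (+) in the Hoxc cluster, gives the same mature miR-196a as Mir196a-1.
miR-196b-5p from Mir196b, chr6:52230129-52230150 (-): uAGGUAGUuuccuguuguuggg
miR-196a-5p from Mir196a-1, chr11:96265187-96265208 (+): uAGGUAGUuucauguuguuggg
miR-10a-5p from Mir10a, chr11:96317186-96317208 (+): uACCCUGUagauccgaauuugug
miR-10b-5p from Mir10b, chr2:74726074-74726096 (+): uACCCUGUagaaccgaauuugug
The best match to miR-196a in any Hox 3′ untranslated region lay in Hoxb8, whose message miR-196a is known to cleave in mouse embryos. It is shown with the bases in A-U and G-C pairs in capitals.
Hoxb8 site, chr11:96284888-96284909 (+): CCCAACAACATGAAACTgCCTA
Only A with U and G with C were counted as pairs. By this count 21 of 22 bases in the site pair with miR-196a, and the next best Hox gene, Hoxd8, reached 15. The remaining base is a G opposite a U of the seed, a wobble pair that was not counted. Hoxb8 thus has no full seed match by this count and is not among the genes counted next. A match to the miR-196 seed was present in 9 of 39 Hox 3′ untranslated regions, among them Hoxa4, Hoxa5, Hoxa7, Hoxa9, Hoxb1, Hoxb6, Hoxb7 and Hoxc8, against 6.12% of 20914 genes. A miR-10 seed match was present in 4, among them Hoxa3, Hoxb3 and Hoxd1, against 12.57% of genes. The hairpin entries of the table, which do not measure the mature microRNA, were at 0 in every library except for Mir196b in DS replicate 5 (0.627 FPKM) and Mir615 in IFD replicate 6 (0.261 FPKM).

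Promoters of members that moved in opposite directions are shown next, as windows of 300 bases around the start, from the RefSeq table (GRCm38.p6), which held 24 entries for 22 of the Hox genes. Hoxa5 and Hoxb8 were higher in DS than in DC libraries, and Hoxa10 and Hoxc4 were lower. Hoxa10 has 2 entries, of which the first is shown. The other, chr6:52240805-52241104 (-), spans the outer annotated start of the gene and holds none of the letters marked here. Capitals mark the letters TGATNNAT, a composite motif of HOX with PBX, or TATAAA, the letters of the core promoter box. They were marked on either strand and at any distance from the start, and no other motif was marked in these windows. Hoxa5 and Hoxc4 hold neither.
Hoxa5 promoter, chr6:52204538-52204837 (-): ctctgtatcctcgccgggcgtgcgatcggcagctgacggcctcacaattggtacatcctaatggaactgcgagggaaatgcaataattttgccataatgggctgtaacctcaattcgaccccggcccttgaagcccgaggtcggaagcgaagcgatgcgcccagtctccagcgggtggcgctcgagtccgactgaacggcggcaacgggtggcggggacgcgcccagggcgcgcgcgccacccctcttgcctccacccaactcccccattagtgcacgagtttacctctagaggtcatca
Hoxb8 promoter, chr11:96281655-96281954 (+): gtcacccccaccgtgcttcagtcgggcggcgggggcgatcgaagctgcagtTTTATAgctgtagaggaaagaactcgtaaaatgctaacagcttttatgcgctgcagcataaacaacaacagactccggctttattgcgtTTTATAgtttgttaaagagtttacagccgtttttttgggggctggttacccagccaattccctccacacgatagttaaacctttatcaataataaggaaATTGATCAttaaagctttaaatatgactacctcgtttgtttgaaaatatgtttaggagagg
Hoxa10 promoter, chr6:52234890-52235189 (-): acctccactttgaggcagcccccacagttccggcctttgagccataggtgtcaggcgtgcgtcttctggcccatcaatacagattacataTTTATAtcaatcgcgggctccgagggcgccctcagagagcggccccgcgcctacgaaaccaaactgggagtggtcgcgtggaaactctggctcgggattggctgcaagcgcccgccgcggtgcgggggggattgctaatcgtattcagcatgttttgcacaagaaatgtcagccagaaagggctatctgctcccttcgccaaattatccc
Hoxc4 promoter, chr15:103034145-103034444 (+): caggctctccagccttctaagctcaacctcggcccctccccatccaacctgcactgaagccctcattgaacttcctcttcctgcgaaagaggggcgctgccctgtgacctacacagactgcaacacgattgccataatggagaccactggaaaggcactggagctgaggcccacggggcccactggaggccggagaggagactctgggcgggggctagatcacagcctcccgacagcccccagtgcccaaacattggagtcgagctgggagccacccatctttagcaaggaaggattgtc
TGATNNAT was in 4 of the 24 Hox promoters and in 8.846% of 32851 promoters of the same length. The letters TATAAA were in 4 of 24, against 13.62% of all. The homeodomain core TAATTA, searched on both strands in the same way, was in 2 of 24, against 5.291%, and in none of the windows shown. The Hox promoters had a median GC content of 57.66% and a median of 14.5 CpG, against 52.67% and 7 for all promoters.

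Between 17 and 26 of the 39 Hox genes reached 1 FPKM in a library. At least 1 FPKM in all 3 libraries of a population was reached by 13 Hox genes in DP, 18 in DS, 17 in DC and 19 in IFD. The most abundant members by mean FPKM over 12 libraries were Hoxc8 (16.9), Hoxc13 (15.4), Hoxc6 (13.8), Hoxb2 (13.1), Hoxb6 (12.7), Hoxa5 (11.4) and Hoxd8 (10.7). Central genes together averaged 76.1 FPKM in DP, 143 in DS, 76.8 in DC and 118 in IFD libraries, and exceeded the anterior and posterior genes combined in every library. Genes of paralogues 11, 12 and 13 other than Hoxc13 stayed at 1.30 FPKM or less, as the heat map of paralogues 2 to 13 shows.

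**Figure D1:**
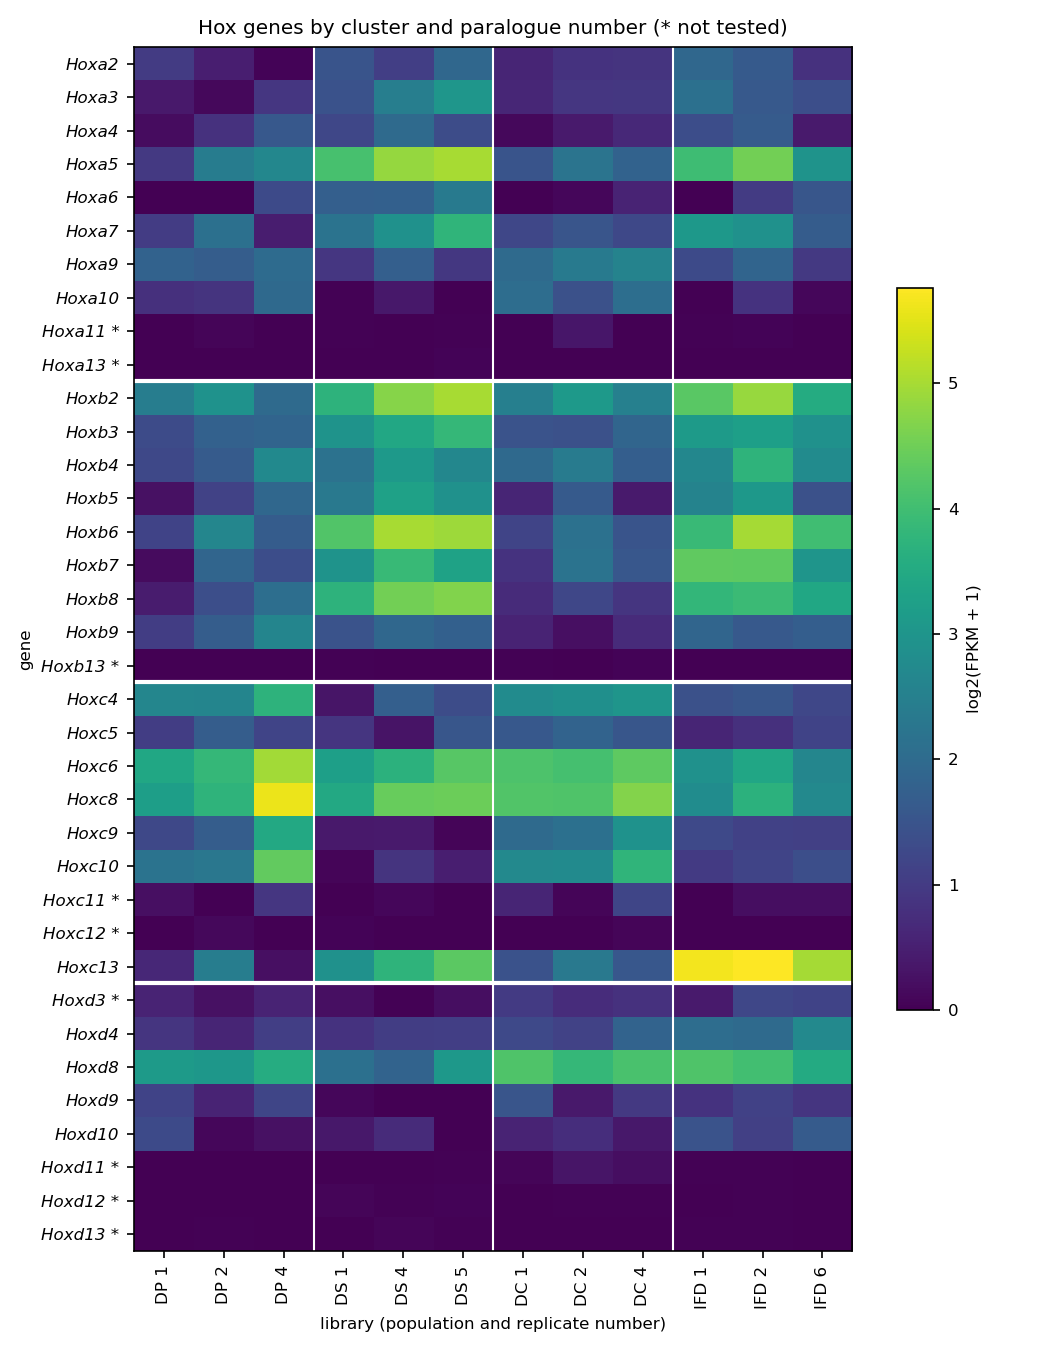
Colour gives log2(FPKM + 1) of the 36 Hox genes of paralogues 2 to 13 (rows, by cluster and paralogue number) in the 12 libraries (columns, DP, DS, DC and IFD); an asterisk marks the 9 genes too low to test. Hoxa5, Hoxb2, Hoxb3 and Hoxb6 to Hoxb8 are brighter in DS and IFD libraries, and so is Hoxb5 except in IFD replicate 6. Hoxc4 and Hoxc10 are brighter in DP and DC libraries, and Hoxc13 is brightest in IFD libraries.

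The populations divided their Hox output differently between clusters. The Hoxb cluster held 17.7%, 27.3% and 14.7% of the summed Hox FPKM in DP libraries, 52.1%, 54.8% and 47.7% in DS, 13.4%, 22.2% and 12.1% in DC and 41.2%, 46.4% and 41.9% in IFD. Hoxb was thus the largest cluster in every DS and IFD library. The Hoxc cluster held 50.98%, 49.2% and 68.4% in DP libraries, 21.5%, 21.6% and 24.4% in DS, 53.3%, 50.3% and 59.4% in DC and 32.1%, 30.2% and 33.3% in IFD. It was the largest cluster in every DP and DC library, and no DP or DC library overlapped the DS and IFD libraries in either share. In FPKM, Hoxb averaged 20.3 ± 8.6 in DP, 103 ± 33 in DS, 17.6 ± 5.9 in DC and 89.5 ± 32.3 in IFD libraries (SD, n = 3). Hoxa averaged 11.6 ± 4.7, 46.1 ± 17.3, 13.2 ± 2.3 and 28.8 ± 12.8 FPKM in DP, DS, DC and IFD libraries. Summed Hoxc FPKM overlapped between all 4 populations, at 30.2, 43.7 and 122 in DP, 26.8, 48.5 and 62.2 in DS, 52.7, 54.996 and 75.2 in DC and 66.9, 80.2 and 46.9 in IFD. The DP mean of 65.2 FPKM was 37.0 without replicate 4. Hoxd averaged 11.6 ± 2.6 FPKM in DP, 6.21 ± 2.27 in DS, 19.8 ± 3.0 in DC and 22.2 ± 1.8 in IFD. Fewer cells of a type and less RNA per cell cannot be told apart in such bulk samples. These sums are a description, with no test.

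**Figure D2:**
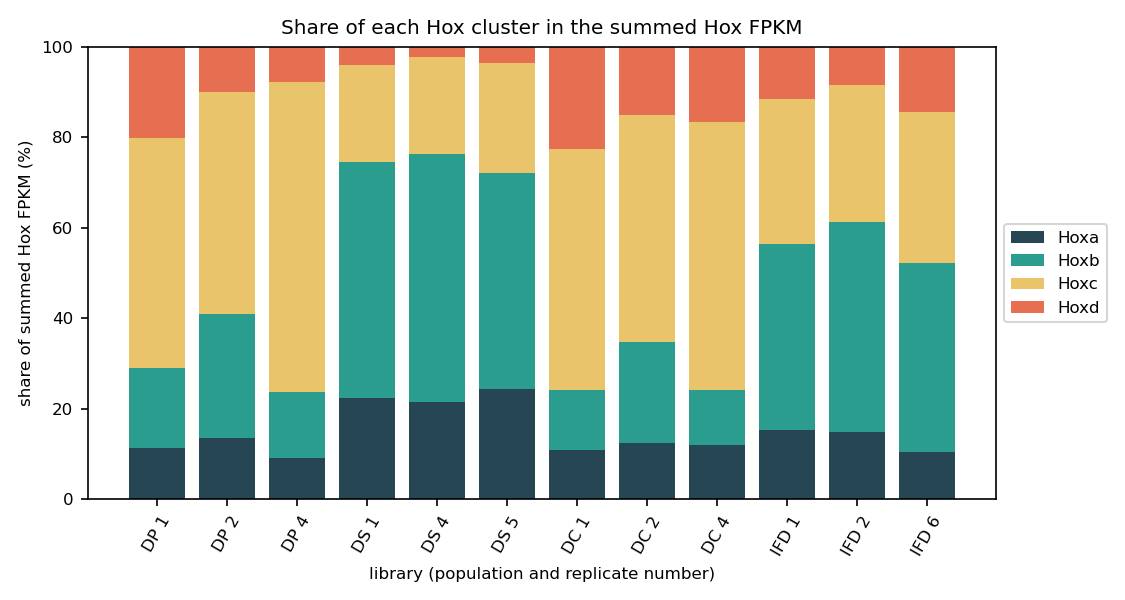
Bars give the percentage of summed Hox FPKM held by each cluster (y axis, 0 to 100%) in each of the 12 libraries (x axis, DP, DS, DC, IFD). The Hoxb segment spans 47.7% to 54.8% in DS and 41.2% to 46.4% in IFD libraries, and 14.7% to 27.3% in DP and 12.1% to 22.2% in DC libraries.

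Of the 39 members, 27 passed the filter of 1 FPKM in at least 3 libraries and were tested with limma on log2(FPKM + 1), with adjusted p-values over all 12774 genes tested. Only 7 of these were at 1 FPKM or more in all 12 libraries, and for Hoxa3 and Hoxa10 no library of a pair of populations reached it (DP and DC for Hoxa3, DS and IFD for Hoxa10). By the moderated F test, 21 of the 27 differed among the 4 populations, against 56.8% of all genes tested. Hoxa2, Hoxa4, Hoxb4, Hoxc5, Hoxc8 and Hoxd10 did not pass it, with adjusted p from 0.0614 to 0.147.

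In DS against DC, 20 of 27 passed (43.9% of all genes), 13 of them higher (24.3%) and 7 lower (19.6%) in DS. The higher ones were Hoxa3 to Hoxa7, Hoxb2, Hoxb3, Hoxb5 to Hoxb9 and Hoxc13. The lower ones were the posterior Hoxa9, Hoxa10, Hoxc9, Hoxc10 and Hoxd9 with Hoxc4 and Hoxd8. The libraries did not overlap for 22 of the 27 members, against 58.7% of all genes. In DC replicates 1 and 2 the 8 immune markers found summed to 1098 and 638 FPKM, against 43.5 in DC replicate 4. Without these replicates, which leaves a single DC library, no Hox difference that had passed changed sign. Fewer then passed in DS against DC, among the Hox genes and over all genes alike. In DP against DS, 18 passed (49.8%), 6 higher (16.4%) and 12 lower (33.4%) in DP, and 17 did not overlap (55.7%). In DP against IFD, 15 passed (42.3%), 3 higher (13.7%) and 12 lower (28.6%) in DP, and 12 did not overlap (48.5%). With median-of-ratios scaling this split became 5 higher and 9 lower, against 2459 higher and 2204 lower over all genes tested. In DC against IFD, 15 passed (37.6%), 5 higher (17.9%) and 10 lower (19.7%) in DC, and 21 did not overlap (52.7%). Without DC replicates 1 and 2, fewer passed here too, again among the Hox genes and over all genes alike. With median-of-ratios scaling 6 were higher and 8 lower in DC, against 2509 higher and 1941 lower over all genes tested. Few members passed in the remaining pairs. In DP against DC only Hoxb9 passed, higher in DP (8.69% of all genes passed, 2.31% higher and 6.38% lower in DP), and 3 members did not overlap (30% of all genes). In DS against IFD only Hoxd4 and Hoxd8 passed, both lower in DS (2.26% of all genes passed, 0.939% higher and 1.32% lower in DS), and 8 did not overlap (21.6%). These comparisons share libraries, so their counts are not independent of each other.

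**Figure D3:**
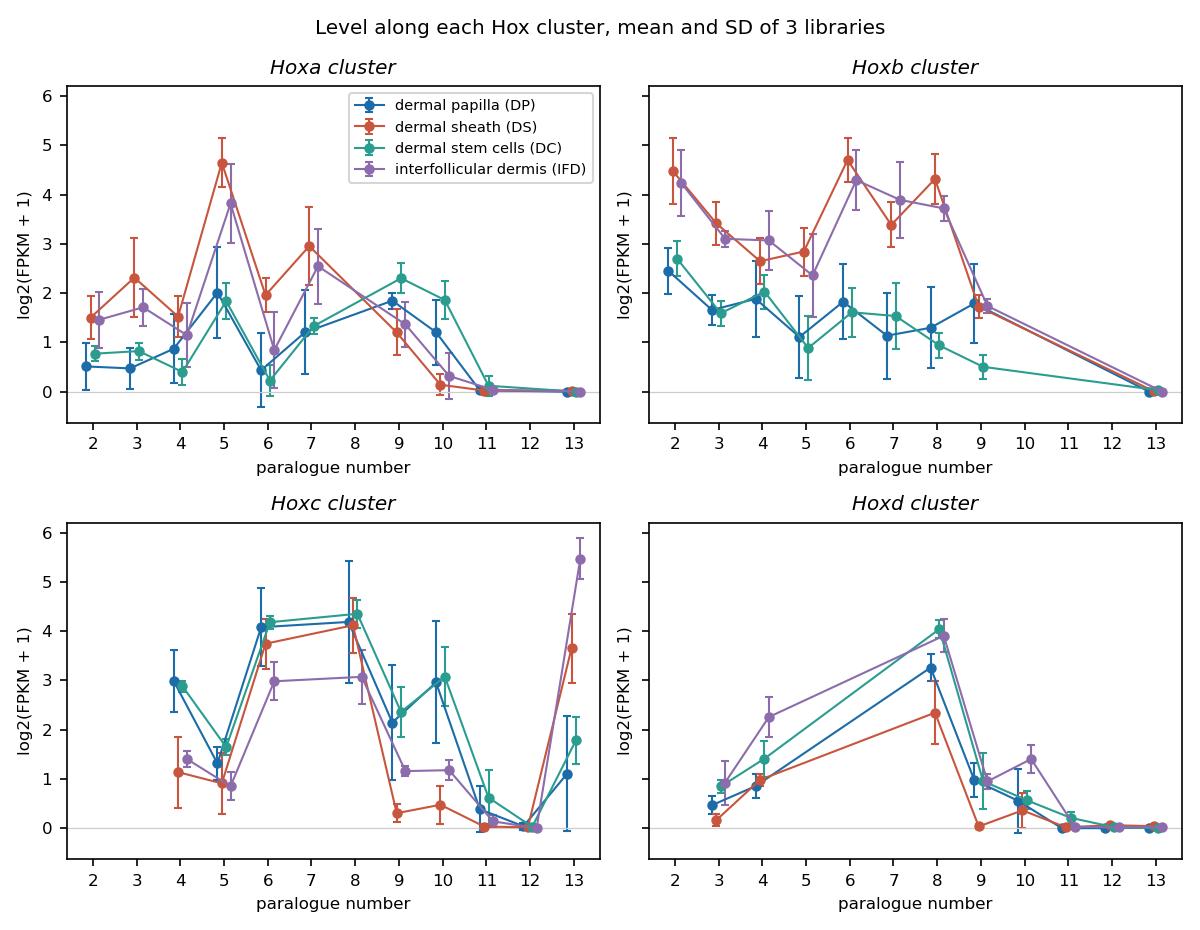
Points give mean log2(FPKM + 1) with SD over 3 libraries (y axis) by paralogue number (x axis, 2 to 13) in DP, DS, DC and IFD, 1 panel per cluster; lines skip numbers the cluster lacks. In Hoxa and Hoxb the DS and IFD means lie above those of DP and DC at paralogues 2 to 7. The order turns at Hoxa9 and Hoxa10, and Hoxc13 stands out in IFD.

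Marker genes moved with these groups. In DS against DC, 12 of 12 fibroblast markers were lower and 8 of 8 cell cycle markers higher in DS, where the cell cycle markers summed to 319 to 435 FPKM, against 19.5 to 64.9 in DC, with Ccnb1 and Plk1 each at 0 in 1 library. Among the 14 keratinocyte markers, 9 were higher and 2 lower in DS. The 20 hair matrix and shaft genes, of which Hoxc13 is one, summed to 217 to 1404 FPKM in DP, 1307 to 1535 in DS, 248 to 574 in DC and 1163 to 1379 in IFD, with Krt85 at 0 in 11 of 12 libraries. In DP against IFD, 12 of 12 fibroblast markers were higher and 8 of 8 cell cycle markers lower in DP. In DC against IFD too, 12 of 12 fibroblast markers were higher and 8 of 8 cell cycle markers lower in DC. The part of these marker genes in the Hox differences was not tested. The median difference of the tested Hox genes was -0.65 in DP against DS (-0.36 over all genes), -0.13 in DP against DC (-0.25), -0.85 in DP against IFD (-0.32), 0.73 in DS against DC (0.13), 0.04 in DS against IFD (0.05) and -0.84 in DC against IFD (-0.14). Median-of-ratios scaling shifted the median of all genes by 0.35, 0.18, 0.29, -0.17, -0.05 and 0.12 in the same order. It changed the sign of none of the 71 Hox differences that passed, and 63 still passed. The share of all called genes that were higher became 51.9% in place of 32.9% in DP against DS, 46.7% in place of 26.6% in DP against DC, 52.7% in place of 32.3% in DP against IFD, 44.8% in place of 55.4% in DS against DC and 56.4% in place of 47.6% in DC against IFD. Of the 71, 44 passed in each of the 12 fits that left out 1 library. Without DP replicates 1 and 2 together, the calls of Hoxa3, Hoxa6, Hoxb5, Hoxd8 and Hoxd9 in DP against DS and of Hoxa3, Hoxa5 and Hoxb4 in DP against IFD were lost. Without DC replicates 1 and 2 together, so were others, in DS against DC and DC against IFD among them. These also included Hoxa2 in DP against DS and Hoxa2, Hoxa7, Hoxb4 and Hoxc6 in DP against IFD. Hoxb9 in DP against DC and Hoxd4 and Hoxd8 in DS against IFD were lost as well.

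**Figure D4:**
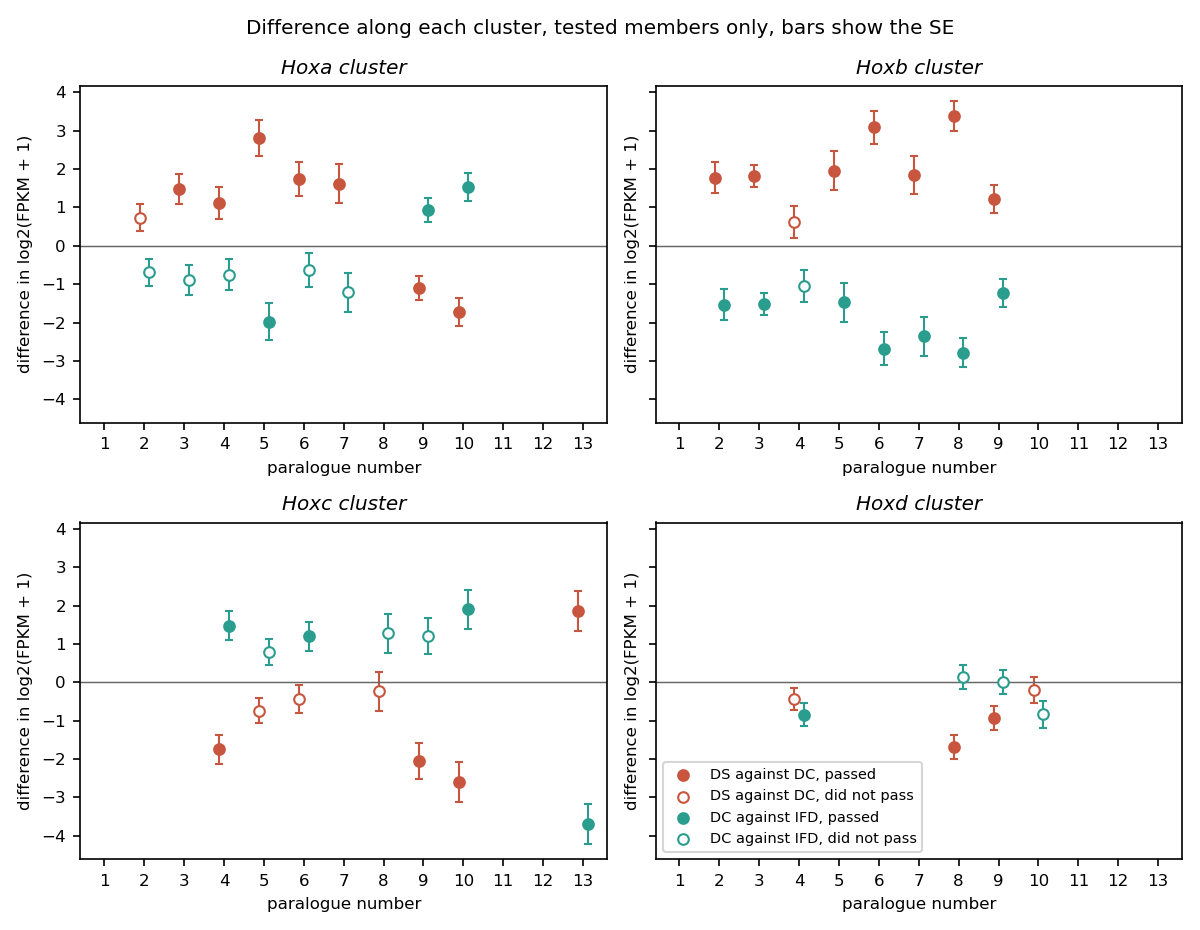
Points give the difference in log2(FPKM + 1) with its SE (y axis) for DS against DC and DC against IFD by paralogue number (x axis), for the 27 tested members; filled points passed at an adjusted p of 0.05. The DS against DC points are above 0 from Hoxa2 to Hoxa7 and from Hoxb2 to Hoxb9 and below 0 at Hoxa9, Hoxa10, Hoxc4 to Hoxc10 and Hoxd4 to Hoxd10.

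Of the 6 Hoxa genes from Hoxa2 to Hoxa7, a range chosen after the values were seen, 5 were higher in DS than in DC (24.3% of all genes) and 5 were lower in DP than in DS (33.4%). Hoxa5, which patterns the neck and thorax and acts in lung development, was the most abundant. It had 0.947, 4.33 and 5.33 FPKM in DP, 15.9, 27.8 and 31.4 in DS, 1.80, 3.65 and 2.51 in DC and 14.6, 22.1 and 6.81 in IFD libraries. Every DS and IFD library lay above every DP and DC library. The difference was 2.81 ± 0.48 (SE; adjusted p = 0.00056) in DS against DC, -2.64 ± 0.48 (SE; adjusted p = 0.000734) in DP against DS, -1.81 ± 0.48 (SE; adjusted p = 0.00957) in DP against IFD and -1.98 ± 0.48 (SE; adjusted p = 0.00636) in DC against IFD. These 4 calls held with any 1 library left out. Hoxa7, a thoracic patterning gene, had 1.02, 3.38 and 0.374 FPKM in DP, 3.55, 6.51 and 12.7 in DS, 1.33, 1.88 and 1.37 in DC and 7.37, 6.51 and 2.18 in IFD libraries. Its DS libraries lay above all DP and DC libraries, with a difference of 1.63 ± 0.50 (SE; adjusted p = 0.0195) in DS against DC. That call was lost without DS replicate 5 or DC replicate 1, with an adjusted p of up to 0.091, and with no filter.

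Hoxa3, needed for thymus and parathyroid formation, had 0.306, 0.0819 and 0.891 FPKM in DP, 1.72, 4.56 and 7.18 in DS, 0.542, 0.874 and 0.918 in DC and 3.39, 2.05 and 1.62 in IFD libraries. It exceeded 1 FPKM in all DS and IFD libraries and in none of the DP and DC libraries. The difference was 1.49 ± 0.39 (SE; adjusted p = 0.00834) in DS against DC and -1.84 ± 0.39 (SE; adjusted p = 0.00202) in DP against DS, and both held with any 1 library left out, but the first was lost with a replicate block. Hoxa6, a central gene between Hoxa5 and Hoxa7, had 0, 0 and 1.46 FPKM in DP, 2.36, 2.42 and 4.11 in DS, 0, 0.0663 and 0.497 in DC and 0, 1.01 and 1.89 in IFD libraries. It was above 2 FPKM in DS libraries only, with a difference of 1.73 ± 0.44 (SE; adjusted p = 0.00708) in DS against DC, while IFD spanned 0 to 1.89 FPKM. Hoxa2, a selector gene of the second branchial arch, had 1.001, 0.391 and 0.0412 FPKM in DP, 1.84, 1.10 and 2.82 in DS, 0.518, 0.809 and 0.811 in DC and 2.81, 2.09 and 0.771 in IFD libraries. Its DS libraries lay above those of DP, with a difference of -0.99 ± 0.36 (SE; adjusted p = 0.035) in DP against DS that was lost without DP replicate 2 or 4 or DS replicate 1 or 5 (adjusted p up to 0.136), with no filter, with median-of-ratios scaling and with a replicate block. Hoxa4 had 0.145, 0.773 and 2.01 FPKM in DP, 1.36, 2.99 and 1.53 in DS, 0.0860, 0.333 and 0.585 in DC and 1.59, 2.15 and 0.330 in IFD libraries. DS and DC libraries did not overlap, but the difference of 1.13 ± 0.41 (SE; adjusted p = 0.0418) was lost in 7 of the 12 fits that left out a library, those without any DS or DC library or without IFD replicate 1 (adjusted p up to 0.142), and with a pseudocount of 0.1, no filter or median-of-ratios scaling. The exons of Hoxa3, Hoxa4, Hoxa7 and Hoxa11 overlap antisense genes in the annotation, and whether strand was used in counting is not given in the sources used here.

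The posterior Hoxa genes tested, Hoxa9 and Hoxa10, were lower in DS than in DC. Hoxa9, which patterns the posterior trunk and acts in blood progenitors, had 2.53, 2.25 and 3.06 FPKM in DP, 0.896, 2.34 and 0.924 in DS, 2.95, 4.07 and 4.997 in DC and 1.45, 2.61 and 0.935 in IFD libraries. The DC libraries lay above all DS and IFD libraries, and the DP libraries overlapped both DS and IFD. The difference was -1.10 ± 0.32 (SE; adjusted p = 0.0149) in DS against DC, and it was lost without DS replicate 1, DS replicate 5 or DC replicate 4 (adjusted p up to 0.0589). Hoxa10, needed for uterine and lumbar patterning, had 0.736, 0.812 and 2.91 FPKM in DP, 0.0282, 0.302 and 0 in DS, 3.19, 1.68 and 3.26 in DC and 0, 0.800 and 0.0778 in IFD libraries. No DS or IFD library reached 1 FPKM, and every DC library did. The difference was -1.72 ± 0.37 (SE; adjusted p = 0.00257) in DS against DC and 1.54 ± 0.37 (SE; adjusted p = 0.00599) in DC against IFD, and both held with any 1 library left out. In DP against DC it was -0.65 ± 0.37 (SE; adjusted p = 0.29), with DP replicate 4 at the DC level and DP replicates 1 and 2 below it.

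Of the 7 Hoxb genes from Hoxb2 to Hoxb8, a range chosen after the values were seen, 6 were lower in DP than in DS (33.4% of all genes) and the same 6 were lower in DC than in IFD (19.7%), all but Hoxb4. Hoxb8, which acts in blood-derived cells and neurons and carries the miR-196a site shown above, had 0.357, 1.60 and 3.20 FPKM in DP, 12.3, 22.4 and 24.5 in DS, 0.633, 1.33 and 0.845 in DC and 13.002, 14.1 and 9.84 in IFD libraries. The lowest of the 6 DS and IFD libraries, at 9.84 FPKM, lay above the highest of the 6 DP and DC libraries, at 3.20 FPKM. The difference of 3.38 ± 0.39 (SE; adjusted p = 3.32e-05) in DS against DC had the smallest adjusted p among the tested Hox genes in that comparison. It was -3.02 ± 0.39 (SE; adjusted p = 6.67e-05) in DP against DS, -2.42 ± 0.39 (SE; adjusted p = 0.000457) in DP against IFD and -2.78 ± 0.39 (SE; adjusted p = 0.000169) in DC against IFD. Hoxb6, expressed in the developing trunk and limb, had 1.22, 5.25 and 2.21 FPKM in DP, 17.2, 31.1 and 29.2 in DS, 1.27, 3.43 and 1.84 in DC and 13.9, 30.9 and 14.9 in IFD libraries. The groups separated in the same way, with a difference of 3.09 ± 0.42 (SE; adjusted p = 0.000117) in DS against DC and -2.68 ± 0.42 (SE; adjusted p = 0.000418) in DC against IFD. Hoxb2, which shapes the facial nerve region of the hindbrain, had 4.47, 6.61 and 2.96 FPKM in DP, 12.2, 25.2 and 31.2 in DS, 4.62, 7.65 and 4.66 in DC and 18.6, 28.2 and 10.7 in IFD libraries. Every DS and IFD library lay above 10 FPKM and every DP and DC library below 8, with a difference of 1.78 ± 0.40 (SE; adjusted p = 0.00346) in DS against DC. All these calls of Hoxb2, Hoxb6 and Hoxb8 held with any 1 library left out.

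Hoxb3, which patterns the hindbrain and neck, had 1.49, 2.45 and 2.65 FPKM in DP, 6.75, 10.01 and 13.2 in DS, 1.77, 1.68 and 2.68 in DC and 7.82, 8.503 and 6.57 in IFD libraries. The separation of DS and IFD from DP and DC was complete, with a difference of 1.82 ± 0.28 (SE; adjusted p = 0.000286) in DS against DC and -1.45 ± 0.28 (SE; adjusted p = 0.00163) in DP against IFD. Hoxb7, a central gene of the trunk, had 0.131, 2.68 and 1.55 FPKM in DP, 6.81, 13.7 and 8.98 in DS, 0.802, 3.58 and 1.96 in DC and 19.4, 19.04 and 7.02 in IFD libraries. All DS and IFD libraries lay above all DP and DC libraries. The difference was -2.25 ± 0.50 (SE; adjusted p = 0.00283) in DP against DS and -2.36 ± 0.50 (SE; adjusted p = 0.00309) in DC against IFD, and the one of 1.85 ± 0.50 (SE; adjusted p = 0.0102) in DS against DC reached an adjusted p of 0.0501 without DC replicate 1. Hoxb5, which acts in the enteric nervous system and the vessels, had 0.205, 1.21 and 2.77 FPKM in DP, 4.02, 8.83 and 6.52 in DS, 0.520, 2.10 and 0.340 in DC and 4.96, 7.46 and 1.68 in IFD libraries. DS libraries lay above all DP and DC libraries, and the lowest IFD library, replicate 6, fell among them. The difference was 1.96 ± 0.51 (SE; adjusted p = 0.0084) in DS against DC. In DC against IFD it was -1.47 ± 0.51 (SE; adjusted p = 0.0389), lost without DS replicate 5, DC replicate 1, DC replicate 4, IFD replicate 1 or IFD replicate 2 (adjusted p up to 0.153), and with a pseudocount of 0.1, no filter or median-of-ratios scaling. Hoxb2, Hoxb3 and Hoxb5 share exon sequence with antisense genes.

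For Hoxb4 and Hoxb9 the DS and IFD libraries did not all lie above the DP and DC libraries. Hoxb4, whose overexpression expands blood stem cells, had 1.39, 2.17 and 5.67 FPKM in DP, 3.51, 7.54 and 5.40 in DS, 2.94, 4.28 and 2.28 in DC and 5.36, 12.5 and 5.92 in IFD libraries. All 4 populations were above 1 FPKM, and DS overlapped both DP and DC. The difference in DS against DC was 0.62 ± 0.42 (SE; adjusted p = 0.252). In DC against IFD it was -1.04 ± 0.42 (SE; adjusted p = 0.0677), which did not pass although the libraries did not overlap. In DP against IFD it was -1.19 ± 0.42 (SE; adjusted p = 0.0368), a call lost without DP replicate 1, DP replicate 2 or IFD replicate 2 (adjusted p up to 0.157), with no filter and with median-of-ratios scaling. Hoxb9, the most posterior Hoxb gene tested, had 1.07, 2.24 and 5.20 FPKM in DP, 1.76, 2.83 and 2.41 in DS, 0.499, 0.172 and 0.625 in DC and 2.70, 2.06 and 2.30 in IFD libraries. It was under 1 FPKM in all DC libraries and above it in the other 9. The difference was 1.22 ± 0.36 (SE; adjusted p = 0.0154) in DS against DC, lost without DS replicate 4 or DC replicate 2 (adjusted p up to 0.0589) and with a replicate block. In DP against DC it was 1.29 ± 0.36 (SE; adjusted p = 0.0431), and the call was lost in 11 of the 12 fits that left out a library (adjusted p up to 0.144), all except that without DP replicate 1, and with no filter. DP and DC libraries were taken as paired by their numbers. When those 6 libraries alone were fitted with the pairs as a replicate block, the adjusted p of Hoxb9 was 0.099.

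**Figure D5:**
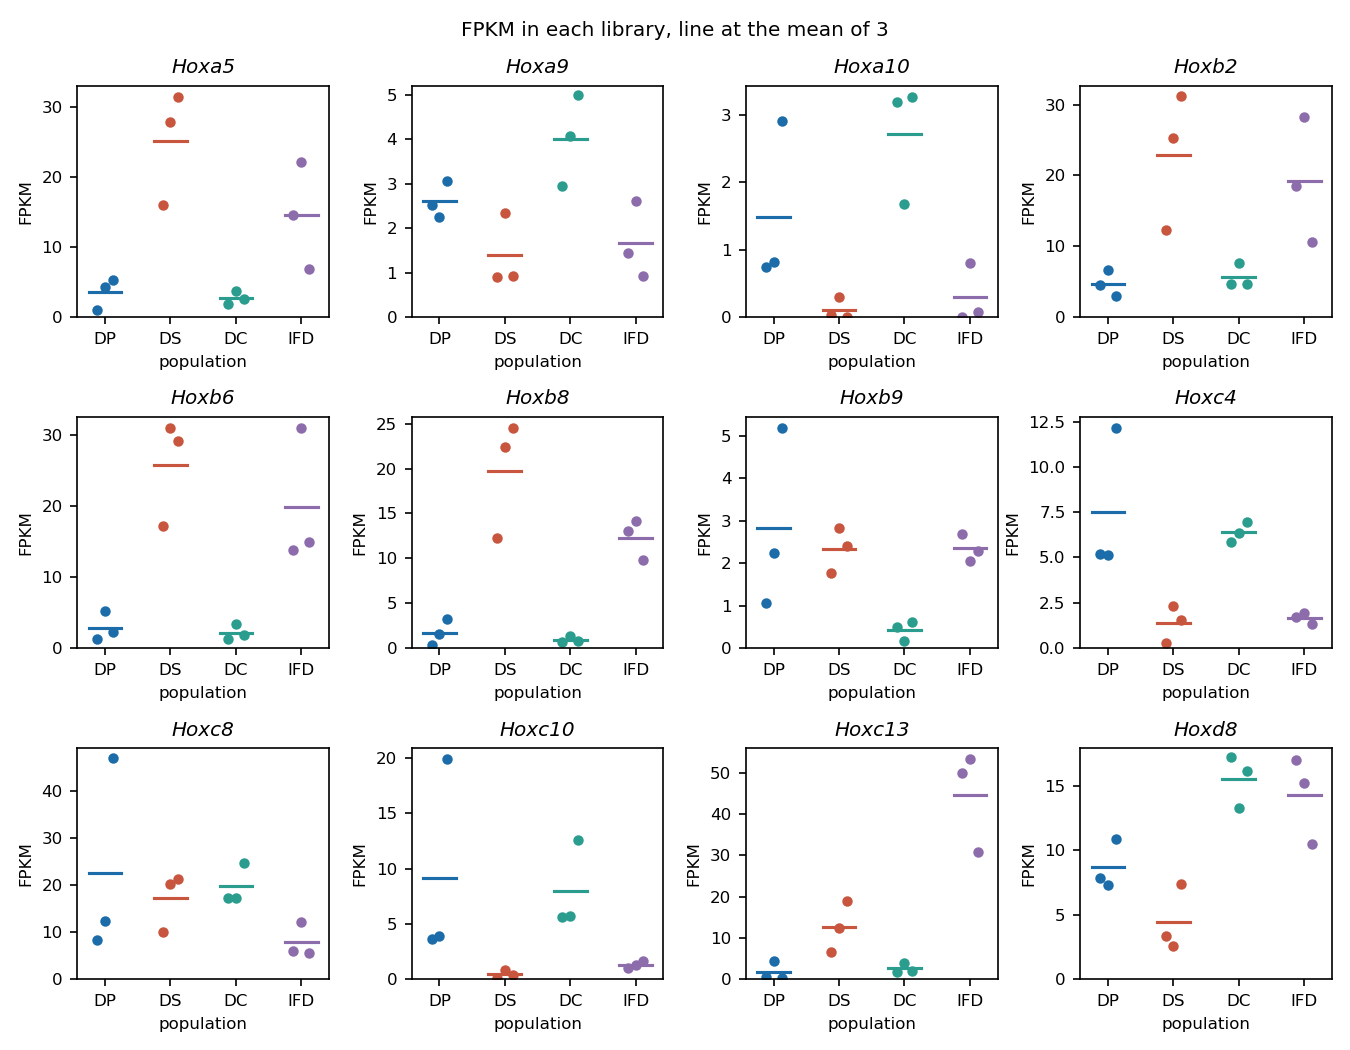
Points give FPKM (y axis, from 0) in each library by population (x axis, DP, DS, DC, IFD) for 12 members, with a line at the mean of 3. Hoxa5, Hoxb2, Hoxb6 and Hoxb8 are high in DS and IFD, Hoxc4 and Hoxc10 in DP and DC, and Hoxa10 in DC and DP replicate 4. Hoxb9 is low in DC alone, Hoxc13 is highest in IFD and Hoxd8 lowest on average in DS.

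The Hoxc cluster held the most abundant Hox genes of DP and DC libraries. Hoxc8, which patterns the thorax and lower neck, had 8.35, 12.5 and 47.1 FPKM in DP, 10.1, 20.3 and 21.2 in DS, 17.3, 17.2 and 24.7 in DC and 5.96, 12.1 and 5.54 in IFD libraries. DP replicate 4 was the highest library of all, and only IFD replicates 1 and 6 were lower than DP replicate 1. None of the 6 comparisons passed, and the difference in DS against DC was -0.23 ± 0.51 (SE; adjusted p = 0.74). Hoxc6, a thoracic gene also expressed in mammary tissue, had 9.87, 13.3 and 30.2 FPKM in DP, 8.61, 11.99 and 18.3 in DS, 16.8, 15.7 and 19.1 in DC and 6.50, 9.57 and 5.22 in IFD libraries. All DP and DC libraries lay above all IFD libraries, and DS overlapped IFD. The difference was 1.10 ± 0.37 (SE; adjusted p = 0.0312) in DP against IFD and 1.20 ± 0.37 (SE; adjusted p = 0.0231) in DC against IFD. The first was lost without DP replicate 4, IFD replicate 1 or IFD replicate 6, and the second without DC replicate 1, DC replicate 4, IFD replicate 1 or IFD replicate 6 (adjusted p up to 0.116 and 0.075). Both were lost with a replicate block and with no filter.

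Hoxc4, the most anterior gene of this cluster, had 5.21, 5.11 and 12.2 FPKM in DP, 0.262, 2.33 and 1.53 in DS, 5.85, 6.33 and 6.98 in DC and 1.71, 1.92 and 1.34 in IFD libraries. Every DP and DC library was above 5 FPKM and every DS and IFD library below 2.5. The difference was -1.74 ± 0.38 (SE; adjusted p = 0.00285) in DS against DC, 1.85 ± 0.38 (SE; adjusted p = 0.00166) in DP against DS, 1.58 ± 0.38 (SE; adjusted p = 0.00557) in DP against IFD and 1.48 ± 0.38 (SE; adjusted p = 0.00905) in DC against IFD. Hoxc10, which specifies lumbar identity, had 3.60, 3.88 and 19.9 FPKM in DP, 0.0638, 0.818 and 0.390 in DS, 5.58, 5.74 and 12.6 in DC and 0.969, 1.25 and 1.61 in IFD libraries. The same populations were high, with DP replicate 4 and DC replicate 4 above their group. The difference was -2.60 ± 0.51 (SE; adjusted p = 0.00151) in DS against DC and 2.48 ± 0.51 (SE; adjusted p = 0.00173) in DP against DS. Hoxc9, which marks thoracic identity in motor neurons, had 1.39, 2.26 and 10.1 FPKM in DP, 0.320, 0.341 and 0.0620 in DS, 2.999, 3.39 and 6.70 in DC and 1.41, 1.18 and 1.12 in IFD libraries. All DS libraries were under 0.4 FPKM, and IFD lay between DS and DC without overlap with either. The difference was -2.06 ± 0.47 (SE; adjusted p = 0.00396) in DS against DC and 1.84 ± 0.47 (SE; adjusted p = 0.00651) in DP against DS. In DC against IFD it was 1.20 ± 0.47 (SE; adjusted p = 0.0625) and did not pass. The passing differences given for Hoxc4, Hoxc9 and Hoxc10 held with any 1 library left out. Hoxc5 ranged from 0.239 to 2.54 FPKM over the 12 libraries and passed in none of the 6 comparisons. Hoxc5 and Hoxc10 share exon sequence on one strand in the annotation, so how reads were divided between them is uncertain.

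Hoxc13, the hair keratin regulator, had 0.571, 4.40 and 0.180 FPKM in DP, 6.55, 12.4 and 18.8 in DS, 1.73, 4.02 and 1.98 in DC and 49.8, 53.3 and 30.7 in IFD libraries. It was the most abundant Hox gene of the IFD libraries, and all 3 lay above the other 9. The difference was -4.37 ± 0.52 (SE; adjusted p = 6.12e-05) in DP against IFD, -3.69 ± 0.52 (SE; adjusted p = 0.000189) in DC against IFD and -2.55 ± 0.52 (SE; adjusted p = 0.00161) in DP against DS, and these held with any 1 library left out. In DS against IFD it was -1.82 ± 0.52 (SE; adjusted p = 0.104), which did not pass although the libraries did not overlap. The difference of 1.87 ± 0.52 (SE; adjusted p = 0.0117) in DS against DC reached an adjusted p of 0.0539 without DS replicate 5. Among the hair matrix and shaft genes, 1 of 18 tested passed in DS against IFD, and it was Krt35, a hair shaft keratin. It had 5.81 to 36.99 FPKM in DP, 8.17 to 8.70 in DS, 6.05 to 16.1 in DC and 253.9 to 364.6 in IFD libraries. Its difference in DS against IFD was -5.03 ± 0.49 (SE; adjusted p = 0.000443). Foxn1, a hair matrix transcription factor, had 0.0448 to 3.17 FPKM in DP, 6.94 to 7.16 in DS, 0.167 to 1.5004 in DC and 4.73 to 6.47 in IFD libraries, with a difference of 0.28 ± 0.45 (SE; adjusted p = 0.831) in DS against IFD. The part of hair matrix RNA in the Hoxc13 difference was not tested.

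Hoxd genes were low apart from Hoxd8, a trunk gene. It had 7.88, 7.33 and 10.9 FPKM in DP, 3.38, 2.56 and 7.40 in DS, 17.2, 13.3 and 16.2 in DC and 17.04, 15.2 and 10.5 in IFD libraries. DS replicates 1 and 4 were the lowest libraries, DS replicate 5 lay beside DP replicate 2, and DC libraries lay above all DP and DS libraries. The difference was -1.70 ± 0.31 (SE; adjusted p = 0.000962) in DS against DC, and it held with any 1 library left out. In DS against IFD it was -1.56 ± 0.31 (SE; adjusted p = 0.022), lost without DS replicate 1, DS replicate 4, IFD replicate 1 or IFD replicate 2 (adjusted p up to 0.104) or with no filter. Hoxd4, which patterns the neck vertebrae, had 0.846, 0.516 and 1.11 FPKM in DP, 0.787, 1.07 and 1.08 in DS, 1.42, 1.19 and 2.54 in DC and 3.17, 2.96 and 5.60 in IFD libraries. The IFD libraries lay above the other 9, with a difference of -1.40 ± 0.29 (SE; adjusted p = 0.00255) in DP against IFD. In DS against IFD the value was -1.27 ± 0.29 (SE; adjusted p = 0.0435), lost in 9 of the 12 fits that left out a library, all except those without DP replicate 2, DP replicate 4 or DC replicate 4 (adjusted p up to 0.129), and with a pseudocount of 0.1, no filter, median-of-ratios scaling or a replicate block. Hoxd4 shares exon sequence with Hoxd3 on its own strand. Hoxd9, a limb and lumbar gene, had 1.22, 0.496 and 1.29 FPKM in DP, 0.0727, 0 and 0 in DS, 1.86, 0.309 and 0.946 in DC and 0.791, 1.16 and 0.858 in IFD libraries. It was at or near 0 in DS, with a difference of -0.92 ± 0.31 (SE; adjusted p = 0.0292) in DS against DC that was lost without any DS library, DC replicate 1 or DC replicate 4 (adjusted p up to 0.145) and with a replicate block. Hoxd10, its neighbour, had 1.47, 0.0751 and 0.197 FPKM in DP, 0.297, 0.634 and 0 in DS, 0.497, 0.676 and 0.295 in DC and 1.76, 1.14 and 2.13 in IFD libraries, and passed in none of the 6 comparisons.

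The 12 members left untested were low in every library. Among them, Hoxb1 reached 1.44 FPKM in DS replicate 4, Hoxc11 1.30 in DC replicate 4 and Hoxd3 1.33 in IFD replicate 2 and 1.22 in IFD replicate 6. Of the 12, 8 stayed under 1 FPKM in every library, among them Hoxa11, Hoxa13, Hoxb13 and Hoxd13. With no filter on low values, Hoxd3 and Hoxd11 passed the F test (adjusted p = 0.0451 and 0.0233), with differences of -0.68 and -0.20 in DS against DC. Hoxd11 was at most 0.261 FPKM in any library. The smallest adjusted p of Hoxd12 was then 0.0314, in DP against DS (difference -0.06), at levels of at most 0.06 FPKM.

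A list of PBC, MEIS and PREP genes, which form the Hox partners, also held the PBX-binding Pbxip1 and the homeobox gene Hmbox1, and 9 of its 11 genes were tested. In DS against DC, 3 were higher (24.3% of all genes) and 4 lower (19.6%) in DS, both extra genes being among the 7, and in DP against DS 4 were higher (16.4%) and 3 lower (33.4%) in DP, with a median of 0.62 in the second (all genes -0.36). With median-of-ratios scaling, 1 was higher and 4 lower in DS against DC, when 2283 of all genes tested were higher and 2815 lower. Pbx2, a PBC partner, had 2.56 to 7.28 FPKM in DP, 14.6 to 22.1 in DS, 7.41 to 10.1 in DC and 13.2 to 19.2 in IFD libraries, with a difference of -1.87 ± 0.31 (SE; adjusted p = 0.000382) in DP against DS. In DS against DC it was 0.95 ± 0.31 (SE; adjusted p = 0.0248), lost without DS replicate 5, DC replicate 1 or DC replicate 4 (adjusted p up to 0.101) and with median-of-ratios scaling. Meis1, a TALE partner of posterior Hox proteins, had 8.498 to 24.1 FPKM in DP, 4.23 to 7.91 in DS, 6.22 to 11.02 in DC and 3.46 to 4.11 in IFD libraries, with 1.54 ± 0.36 (SE; adjusted p = 0.00444) in DP against IFD, while the value in DS against DC was -0.28 ± 0.36 (SE; adjusted p = 0.55). Pbxip1, which binds PBX proteins and blocks their binding to DNA with Hox, had 5.16 to 8.40 FPKM in DP, 3.03 to 5.12 in DS, 13.3 to 21.03 in DC and 3.64 to 5.55 in IFD libraries. Every DC library lay above every other, with -1.73 ± 0.27 (SE; adjusted p = 0.000335) in DS against DC.

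Of 15 trithorax and MLL genes tested, 12 were higher (24.3% of all genes) and 0 lower (19.6%) in DS than in DC, with a median of 0.98 (all genes 0.13). In DP against DS, 12 were lower (33.4% of all genes) and 0 higher (16.4%) in DP. These genes and the cell cycle markers were high in the same populations, and the part of cell division in them was not tested. Kdm6b, a demethylase that removes the Polycomb mark, had 18.7 to 30.9 FPKM in DP, 17.1 to 33.5 in DS, 15.7 to 28.5 in DC and 12.2 to 32.7 in IFD libraries, and none of its 6 differences passed. Wdr5 and Dpy30 are subunits of MLL complexes and Psip1 helps to recruit them. Wdr5 had 5.99 to 13.02 FPKM in DP, 27.3 to 31.2 in DS, 9.62 to 11.3 in DC and 24.7 to 29.2 in IFD libraries, with 1.39 ± 0.25 (SE; adjusted p = 0.000726) in DS against DC. Psip1 had 4.52 to 14.3 FPKM in DP, 24.8 to 36.8 in DS, 10.5 to 13.1 in DC and 15.8 to 35.6 in IFD libraries, with 1.32 ± 0.37 (SE; adjusted p = 0.0118) in DS against DC. Dpy30 had 2.21 to 6.61 FPKM in DP, 29.6 to 45.6 in DS, 13.5 to 19.3 in DC and 17.8 to 47.3 in IFD libraries, with -2.82 ± 0.38 (SE; adjusted p = 9.75e-05) in DP against DS, and DP libraries lay below all others. Of 25 Polycomb genes tested, 11 were higher (24.3% of all genes) and 1 lower (19.6%) in DS than in DC, with a median of 0.54 (all genes 0.13). In DP against DS, 14 were lower (33.4%) and 0 higher (16.4%) in DP. Ezh2, the methyltransferase of PRC2, had 5.61 to 18.5 FPKM in DP, 46.5 to 84.7 in DS, 7.95 to 12.8 in DC and 37.3 to 58.7 in IFD libraries, with a difference of 2.38 ± 0.37 (SE; adjusted p = 0.000296) in DS against DC. Eed, its partner in PRC2, had 13.2 to 17.7 FPKM in DP, 31.1 to 44.3 in DS, 13.1 to 17.5 in DC and 27.1 to 29.4 in IFD libraries, with 1.25 ± 0.21 (SE; adjusted p = 0.00045) in DS against DC. The PRC1 genes Rnf2 and Phc2 did not pass in DS against DC, and Phc2 differed by -1.33 ± 0.26 (SE; adjusted p = 0.00108) in DP against DS, with 5.65 to 11.9 FPKM in DP, 16.8 to 26.1 in DS, 18.5 to 24.5 in DC and 23.8 to 24.98 in IFD libraries. With median-of-ratios scaling, 11 trithorax genes were higher and 0 lower, and 9 Polycomb genes higher and 1 lower, in DS against DC. Over all genes tested, 2283 were then higher and 2815 lower.

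Retinoic acid induces anterior Hox genes in the embryo, and 13 of 19 listed genes of its pathway and of the Cdx family were tested. In DS against DC, 0 were higher (24.3% of all genes) and 4 lower (19.6%) in DS. With median-of-ratios scaling 0 were higher and 6 lower, when 2283 of all genes tested were higher and 2815 lower. In DP against DS 4 were higher (16.4%) and 4 lower (33.4%) in DP. With that scaling the split became 5 and 1, when 2852 of all genes tested were higher and 2645 lower. Crabp1, a retinoic acid binding protein of the papilla, had 86.2 to 636.3 FPKM in DP, 3.77 to 19.02 in DS, 24.1 to 40.5 in DC and 17.1 to 56.6 in IFD libraries, with a difference of 4.62 ± 0.67 (SE; adjusted p = 0.00016) in DP against DS. Dhrs3, which lowers retinoic acid synthesis, had 19.6 to 43.8 FPKM in DP, 17.3 to 20.997 in DS, 56.6 to 107.6 in DC and 21.2 to 25.1 in IFD libraries, with -1.99 ± 0.29 (SE; adjusted p = 0.000185) in DS against DC. Rarg, a retinoic acid receptor abundant in skin, had 23.8 to 29.2 FPKM in DP, 25.4 to 31.03 in DS, 27.8 to 40.4 in DC and 24.3 to 31.4 in IFD libraries and passed in no comparison. Crabp2, which carries retinoic acid to its receptors, had 31.3 to 54.3 FPKM in DP, 4.14 to 13.9 in DS, 16.5 to 30.4 in DC and 10.8 to 17.8 in IFD libraries, with 2.55 ± 0.39 (SE; adjusted p = 0.000213) in DP against DS.

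Genes that flank the clusters and other positional genes were counted in the same way. Of 11 flanking genes tested, 6 were higher (24.3% of all genes) and 1 lower (19.6%) in DS than in DC. With median-of-ratios scaling 2 were higher and 1 lower, when 2283 of all 12774 genes were higher and 2815 lower. Cbx5, which encodes a heterochromatin protein and lies beside Hoxc, had 2.68 to 4.68 FPKM in DP, 22.7 to 30.4 in DS, 7.71 to 9.28 in DC and 15.4 to 20.7 in IFD libraries, with 1.56 ± 0.23 (SE; adjusted p = 0.000206) in DS against DC. Mtx2, a mitochondrial import gene beside Hoxd, had 17.4 to 26.8 FPKM in DP, 46.4 to 57.3 in DS, 21.5 to 34.6 in DC and 37.8 to 83.4 in IFD libraries, with -1.22 ± 0.29 (SE; adjusted p = 0.00441) in DP against DS. Tax1bp1, beside Hoxa, and Atf2, beside Hoxd, passed in DS against DC with differences of 0.61 ± 0.19 (SE; adjusted p = 0.0209) and 0.66 ± 0.24 (SE; adjusted p = 0.0381). The calls of Tax1bp1 without DS replicate 1, DS replicate 4, DC replicate 1 or DC replicate 4 (adjusted p up to 0.0858) and of Atf2 without DS replicate 4, DS replicate 5 or any DC replicate (up to 0.116) were lost, as were both with median-of-ratios scaling. Of 25 listed noncoding RNAs of the clusters, 14 were found and 1 was tested, Hoxd3os1, an antisense RNA at Hoxd3, which had 0.0920 to 1.49 FPKM in DP, 0 to 1.08 in DS, 0.496 to 2.31 in DC and 0 to 0.118 in IFD libraries. Its difference was 1.18 ± 0.40 (SE; adjusted p = 0.0346) in DC against IFD, lost without DC replicate 2, DC replicate 4 or any IFD replicate (adjusted p up to 0.12). A list of other positional genes held homeobox and T-box genes and also Twist1, Twist2, Hhip, Eya1, Pax1 and Pax9, which are neither. Of its 19 genes tested, 4 were higher (24.3%) and 10 lower (19.6%) in DS than in DC. In DP against DS, 12 were higher (16.4%) and 4 lower (33.4%) in DP. Median-of-ratios scaling left these counts as they were, with 2852 of all genes tested higher and 2645 lower in DP against DS. Dlx3, Msx2 and Lhx2, which act in hair follicle epithelium, differed by 3.37 ± 0.54 (SE; adjusted p = 0.000357), 3.12 ± 0.39 (SE; adjusted p = 6.44e-05) and 3.33 ± 0.53 (SE; adjusted p = 0.000344) in DS against DC. Prrx1, a mesenchymal homeobox gene, had 38.5 to 81.9 FPKM in DP, 1.61 to 7.02 in DS, 74.8 to 117.8 in DC and 3.98 to 5.61 in IFD libraries, with a difference of -4.09 ± 0.40 (SE; adjusted p = 1.1e-05) in DS against DC. Lhx2 had 0.981 to 3.30 FPKM in DP, 47.8 to 133.7 in DS, 2.93 to 15.9 in DC and 18.2 to 47.3 in IFD libraries.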

How the data were processed

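The deposited values are FPKM, 1 column for each of the 12 libraries, which the authors made with TopHat2 2.0.13, SAMtools and Cufflinks 2.2.1 on mm10, per the submitters' processing notes, which give no roles or annotation. Per the labels' protocols, cells were sorted, their RNA was taken with a Dynabeads mRNA kit and libraries followed SOLiD protocols. The test was limma 3.58.1 in R 4.3.3 on log2(FPKM + 1) for genes reaching 1 FPKM in 3 or more libraries, as 4 population means in one model with a mean-variance trend, 8 residual and 4.61 prior degrees of freedom. An F test and 6 pairwise contrasts were each adjusted by the Benjamini-Hochberg method over all 12774 genes, two-sided, at 0.05. A pseudocount of 1 makes fold changes of low genes smaller than they are. The script was tested on simulated data. Alternatives were a pseudocount of 0.1, no filter, median-of-ratios scaling, a replicate block and leaving out libraries.

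Members, lists and comparisons were chosen with earlier results of these data known. Values in every library are given for the 3 most abundant members of each cluster, every member that passed in a pairwise contrast and Hoxc13, and of each list the 4 tested members of highest mean FPKM are named. Some items that this rule would name are not reported here. Krt35 and Foxn1 were named after their values were seen. No source says that replicates came from separate mice, so p-values measure the spread between libraries, which may be technical. For pairing, the deviations from group means of same-numbered DP and DC libraries correlated at 0.306, 0.241 and 0.389 (number 1, 2 and 4), so numbers were taken to pair DP and DC. Other pairs of populations share at most 2 numbers, and same-numbered DS and DC libraries correlated at 0.294 and 0.139 (number 1 and 4). The differently numbered DS replicate 1 and IFD replicate 6 correlated at 0.445, so such correlations do not establish pairing. Positions are from GENCODE on GRCm38 and sequences from RefSeq. The depth is unknown, so no counting interval is given. Figures were drawn with matplotlib 3.10.9.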

Additional observations from a re-analysis of the deposited data

How the results depend on the processing

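None of the 71 Hox differences that passed changed sign under any alternative. Of the 71, 66 passed with a pseudocount of 0.1, 54 with no filter (which tests all 39 members among 21142 genes), 63 with median-of-ratios scaling and 61 with a replicate block. The call counts of Hox genes that moved by over 1.5 times were these. In DP against DC the count of 1 was 0 without DC replicates 1 and 2 together, 0 in a fit of the 6 DP and DC libraries and 0 in those 6 with the replicate block, and 0 to 1 with 1 library left out. Hoxb9 then had an adjusted p of 0.137 without and 0.099 with the block. The fits of 6 libraries and those without replicates 1 and 2 of DP or of DC were chosen after seeing the data, and without DP replicates 1 and 2 every Hox count stayed within 1.5 times. In DS against IFD the count of 2 was 0 with no filter, 1 with median-of-ratios scaling, 1 with the replicate block, 0 without DC replicates 1 and 2 together and 0 to 3 with 1 library left out. Without DC replicates 1 and 2 together, DS against DC had 11 in place of 20, and DC against IFD 6 in place of 15; a single library then stood for DC and was assumed to vary like the others. Leaving out 1 library gave 18 to 22 for the F test, 13 to 18 in DP against DS, 11 to 15 in DP against IFD, 16 to 20 in DS against DC and 10 to 18 in DC against IFD. The summed Hoxd FPKM of IFD libraries was 20.0134 with median-of-ratios scaling, in place of 22.2, and the Hoxc sum of DP libraries ran from 37.0 to 82.7 with 1 library left out. Over all genes, DP against DC had 1110 calls, 515 to 1422 with 1 library left out, 512 in those 6 libraries alone, 658 there with the block and 182 without DC replicates 1 and 2. DS against IFD had 289, 103 to 431 with 1 library left out, 150 with the block and 162 without DC replicates 1 and 2, where DS against DC had 2620 in place of 5607 and DC against IFD 2005 in place of 4800. Only DP and DC share all 3 replicate numbers, and the block in the 12 libraries treats all populations alike. The number of reads is unknown, so the precision that depth gives, also of the 12 untested members, cannot be stated.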
